A study of Mus musculus with 6 samples.

Results

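The Hippo pathway was followed through 10 genes in mouse embryonic stem cells before and after Dicer deletion. They are the kinases Lats1, Lats2, Stk3 and Stk4, the adaptors Sav1 and Mob1a, the coactivators Yap1 and Wwtr1, and the DNA-binding factors Tead1 and Tead4. They were taken by name, with every probe set whose only listed gene was 1 of them, which gave 10 probe sets for 9 of the genes, among 19938 genes measured on the arrays. Stk3 had no such probe set and has no value here, and Tead1 had 2. The cells carried conditional Dicer alleles (Dicer Fx/Fx), and total RNA was measured on 6 Affymetrix arrays. The untreated group (3 arrays) held cells without deletion, and the tamoxifen group (3 arrays) held the same kind of cells with Dicer deleted: tamoxifen was present for 3 days and the cells were taken 2 days later, on day 5. The labels name no collection day for untreated cells, no source of the recombinase, and no number of clones. Wild-type cells given tamoxifen, which the labels' protocols mention, were not analysed here, so effects of tamoxifen, of Dicer loss and of days in culture cannot be told apart. Whether replicates were separate cultures is not said in the labels, so p-values rest on a spread between samples that may be technical only.

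In the Hippo pathway the Mst kinases, encoded by Stk3 and Stk4, bind the scaffold Sav1 and activate the kinases Lats1 and Lats2, which need the cofactor Mob1a. The Lats kinases phosphorylate Yap1 and its relative Taz, encoded by Wwtr1, and the phosphorylated coactivators are held in the cytoplasm or degraded. Unphosphorylated Yap1 and Taz enter the nucleus and act there through the Tead proteins, which bind DNA. In the early mouse embryo this switch separates the outer cells that become trophectoderm, where Tead4 and nuclear Yap act, from inner cells with active Lats kinases. Arrays measure transcripts only, and much of this switch works through phosphorylation.

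Dicer cuts microRNA precursors into mature microRNAs, and Lats2 has been described as a target of the microRNAs of pluripotent cells that share a seed, the bases 2 to 8 that pair with target transcripts. Of 1738 mature mouse microRNAs in the RefSeq table (GRCm38.p6), 5 have the seed of miR-294-3p. They are shown because the member that rose, Lats2, belongs to the described targets of this family. The seed is in capitals, each sequence runs 5′ to 3′, and all 5 lie on the plus strand.
mmu-miR-291a-3p, chr7:3218968-3218989: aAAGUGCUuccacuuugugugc
mmu-miR-294-3p, chr7:3220691-3220712: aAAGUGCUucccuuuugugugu
mmu-miR-295-3p, chr7:3220815-3220837: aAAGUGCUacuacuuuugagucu
mmu-miR-302b-3p, chr3:127545275-127545297: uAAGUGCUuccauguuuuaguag
mmu-miR-302d-3p, chr3:127545665-127545687: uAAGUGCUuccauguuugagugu
The 3 on chromosome 7 start with an A before the seed and the 2 on chromosome 3 with a U. No site in a target transcript was searched.

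The arrays were close to each other, and the Dicer1 transcript fell. Values are log2 intensities made by the authors with the robust multi-array average (RMA), and the number of arrays limits their precision. Dicer1 read 11.43, 11.36 and 11.48 in untreated replicates 1, 2 and 3 and 9.53, 9.48 and 9.69 after tamoxifen, a change of -1.85 ± 0.07 (SE; limma adjusted p = 3.61e-05). Arrays of the same group correlated across genes at 0.996 to 0.998 and arrays of different groups at 0.993 to 0.996. On the first principal component, which held 52.7% of the variance, the tamoxifen arrays lay at 6.87, 17.9 and 15.8 and the untreated arrays between -16.9 and -11.5, so tamoxifen replicate 1 was the nearest to untreated cells. Its Dicer1 value lay between those of the other tamoxifen arrays. All 10 embryonic stem cell markers were measured, and their mean log2 level was 12.5 to 12.6 on the untreated arrays and 12.4 to 12.5 on the tamoxifen arrays, with no overlap (12.51 at the lowest against 12.50 at the highest). The mean of 10 trophectoderm markers ran from 7.97 to 8.09 and from 7.95 to 8.15, that of 9 primitive endoderm markers from 7.53 to 7.72 and from 7.54 to 7.64, and that of 10 fibroblast markers from 6.96 to 7.13 and from 7.07 to 7.12. No gene of these 4 lists was called by limma without the block. At an unadjusted p under 0.05, 0 stem cell markers were higher and 4 lower, or 40% of that list, beside 24.5% of all genes. The other lists together had 3 higher and 4 lower, and all 39 markers stood at 28.2%. Groups did not overlap for 60% of the stem cell markers, 5 lower and 1 higher, beside 29.3% of all genes. The median change of the stem cell markers was -0.099, and 0 of the 10 were dimmer than the median gene. Over all genes the median change was 0.01, and without the dimmest 40% of genes it was -0.03. With the replicate number as a block in the fit, 3 of the 39 markers rose and 8 fell, 3 of these being stem cell markers (28.2%, beside 17.4% of all genes). RMA values carry no detection call, so no marker can be called absent. The part of signal brightness in the stem cell marker difference was not tested, nor was the part of that difference in the results below.

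Of the 9 measured genes 1 rose, Lats2, and 0 fell, at a Benjamini-Hochberg adjusted p under 0.05 over all genes in limma. That is 11.1% of the members, beside 7.78% of all 19938 genes called in either direction, 3.79% higher and 3.99% lower. With 9 genes, a single call is no share to set against that background. At an unadjusted p under 0.05, Lats2 was higher and Wwtr1 lower, where 24.5% of all genes passed. The other 7 genes had changes between -0.08 and 0.10 on the log2 scale. The median change of the 9 was 0.02, and that of all genes 0.01. Pairing by replicate number was inferred from these data, in which same-numbered arrays deviated from their group means together. A blocked fit, with the replicate number as a term, called Lats2 higher and Wwtr1 lower. That fit called 17.4% of all genes, 7.87% higher and 9.54% lower.

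**Figure D1:**
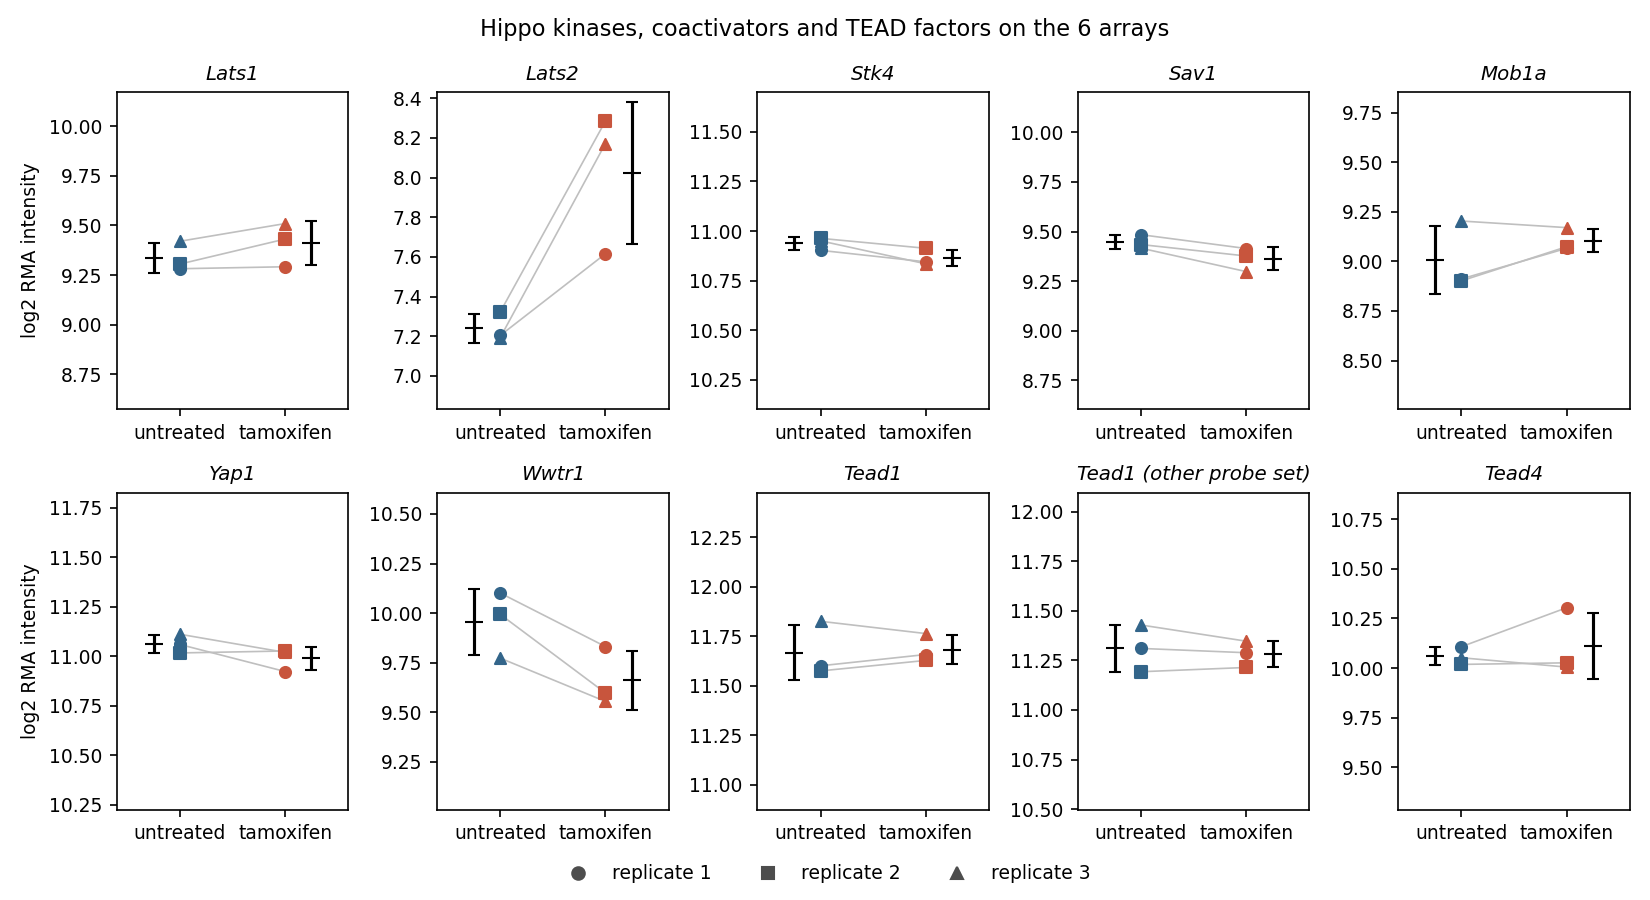
Log2 RMA intensity (vertical axis, each panel spanning the same range of log2 units) of every probe set of the measured Hippo genes on the untreated (blue) and tamoxifen (red) arrays. Symbols and grey lines mark replicate numbers and black bars give the mean ± SD of 3 arrays; the Lats2 values after tamoxifen (7.62 to 8.29) lie above all untreated values (7.19 to 7.32), and Wwtr1 is lower in each replicate pair.

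Lats2, 1 of the kinases that phosphorylate Yap1 and Taz, read 7.20, 7.32 and 7.19 in untreated replicates 1, 2 and 3 and 7.62, 8.29 and 8.17 after tamoxifen. The groups did not overlap, and tamoxifen replicate 1 was well below the other tamoxifen arrays. The mean went from 7.24 ± 0.07 to 8.02 ± 0.36 (SD, n = 3), which is 0.78 ± 0.15 (SE) on the log2 scale. This rise of 1.72-fold had a 95% confidence interval from 1.35-fold to 2.19-fold and a limma adjusted p of 0.0199. It ranked 673 of 19938 genes by p. Within replicate pairs the rise was 0.41, 0.96 and 0.98, so it was higher in 3 of 3 pairs, and the blocked fit gave an adjusted p of 0.00272. The exact permutation test (two-sided) stood at p = 0.1, below which 3 against 3 arrays cannot go.

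The call depended on which array was left out. It was kept without tamoxifen replicate 1 (change 0.99, adjusted p = 0.00182) and without untreated replicate 1 (0.0471), and lost without untreated replicate 2 (0.0596), untreated replicate 3 (0.0589), tamoxifen replicate 2 (0.0722) or tamoxifen replicate 3 (0.0777). The fits that lost it also called fewer genes in all, at 516, 908, 355 and 539 in that order, against 1552. The Lats2 call was also lost in the fit over all 35556 probe sets, listed gene or not (0.0873). The change itself stayed between 0.65 and 0.99 whichever array was left out. Lats2 signal in untreated cells lay near the array medians of 7.19 to 7.26, and RMA compresses changes of dim probe sets.

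Lats1, the other Lats kinase, read 9.28, 9.31 and 9.42 in untreated cells and 9.29, 9.43 and 9.51 after tamoxifen. The groups overlapped, and the change was 0.08 ± 0.08 (limma adjusted p = 0.591), with an interval from 0.935-fold to 1.19-fold. The difference between the log2 changes of Lats2 and Lats1 was 0.71, and it was positive in each replicate pair, at 0.40, 0.84 and 0.89. Its exact two-sided permutation p was 0.1, the smallest this test can give with 3 against 3 arrays, and 0.3 adjusted over the 3 paralog pairs.

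Among the upstream members, no gene passed the threshold. Stk4, which encodes the kinase Mst1, read 10.90, 10.96 and 10.95 in untreated cells and 10.84, 10.91 and 10.83 after tamoxifen, with a change of -0.07 ± 0.06 (limma adjusted p = 0.481). The groups overlapped slightly, and the interval ran from 0.865-fold to 1.04-fold. Sav1, the scaffold that brings Mst to Lats, read 9.48, 9.43 and 9.42 in untreated cells and 9.41, 9.38 and 9.30 after tamoxifen. Its groups touched without overlapping, as did those of 29.3% of all genes, and the change of -0.08 ± 0.06 had a limma adjusted p of 0.457 and an interval from 0.858-fold to 1.04-fold. Stk4 and Sav1 were lower in 3 of 3 replicate pairs, by 0.05 to 0.12; 51.7% of all genes had all 3 pairs on 1 side.

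Mob1a, the cofactor that Lats kinases bind, read 8.91, 8.90 and 9.20 in untreated cells and 9.07, 9.07 and 9.17 after tamoxifen. The untreated values spread more widely and enclosed the treated ones, and the change was 0.10 ± 0.09 (limma adjusted p = 0.552; interval from 0.929-fold to 1.23-fold). Its close relative Mob1b, outside the member list, changed by 0.11 ± 0.08 (limma adjusted p = 0.467).

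The coactivator genes were both lower in the mean and neither was called without the block. Wwtr1, which encodes Taz, read 10.10, 9.99 and 9.77 in untreated cells and 9.83, 9.60 and 9.55 after tamoxifen. Untreated replicate 3 lay just below tamoxifen replicate 1, so the groups overlapped, yet each treated array was below the untreated array of its number, by 0.27, 0.40 and 0.22. The mean went from 9.96 ± 0.17 to 9.66 ± 0.15 (SD, n = 3), a log2 change of -0.30 ± 0.10 (SE), with an interval from 0.693-fold to 0.959-fold and a limma adjusted p of 0.12. With the replicate block the same change had a standard error of 0.06 and an adjusted p of 0.015. The unblocked fit called it in 0 of 6 fits without 1 array, with adjusted p-values from 0.0599 to 0.313.

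Yap1 read 11.06, 11.02 and 11.11 in untreated cells and 10.92, 11.03 and 11.02 after tamoxifen. Its groups overlapped, 1 of 3 replicate pairs was higher, and the change was -0.07 ± 0.06 (limma adjusted p = 0.521; interval from 0.862-fold to 1.05-fold). The log2 changes of Wwtr1 and Yap1 differed by -0.22, and by -0.13, -0.41 and -0.13 in the replicate pairs. The exact two-sided permutation p of that difference was 0.2, or 0.3 adjusted over the 3 paralog pairs.

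Neither Tead gene was called. Tead1 read 11.60, 11.58 and 11.83 in untreated cells and 11.66, 11.63 and 11.76 after tamoxifen on its brighter probe set, with a change of 0.02 ± 0.08 (limma adjusted p = 0.93; interval from 0.889-fold to 1.15-fold). Its other probe set read 11.31, 11.19 and 11.43 and then 11.29, 11.21 and 11.35, a change of -0.03 ± 0.08 (limma adjusted p = 0.866, when every probe set with a single listed gene was fitted). On both probe sets replicate 3 was the highest in either group. Tead4, the Tead factor needed for trophectoderm, read 10.11, 10.02 and 10.05 in untreated cells and 10.30, 10.03 and 10.005 after tamoxifen. The highest Tead4 value was that of tamoxifen replicate 1, and without that array the change turned from 0.05 ± 0.09 (limma adjusted p = 0.758) to -0.04. The log2 changes of Tead4 and Tead1 differed by 0.04 (exact two-sided permutation p = 0.9).

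**Figure D2:**
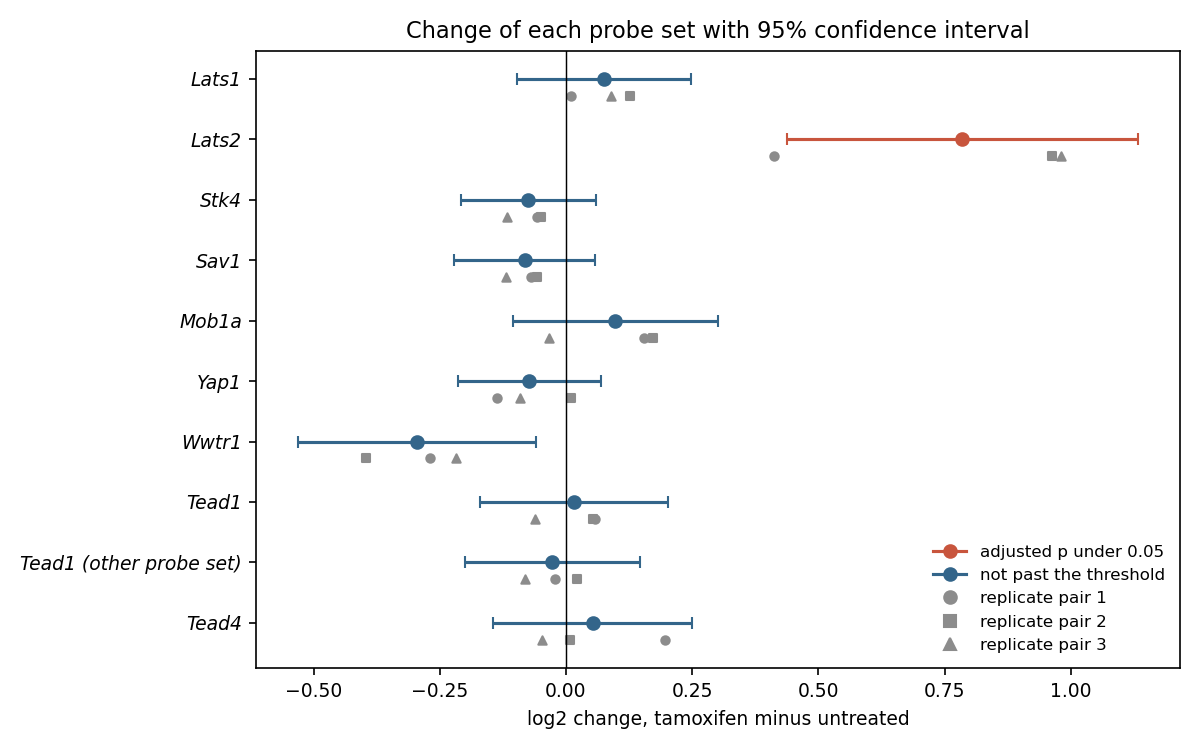
Log2 change, tamoxifen minus untreated (horizontal axis), of each probe set with its 95% confidence interval from limma, and below it the 3 differences within replicate pairs in grey. The Lats2 interval (0.44 to 1.13) and the Wwtr1 interval (-0.53 to -0.06) leave out 0, and only Lats2 is past the adjusted threshold; the other intervals hold 0.

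Promoters of the members were searched for GGAATG, the core of the site that Tead proteins bind, and its reverse complement CATTCC, from 250 bases before to 50 after the start site, in RefSeq sequence of GRCm38.p6. Stk3, Tead1 and Tead4 had no promoter among these sequences and were not searched. Of 9 promoters of 7 member genes, 6 promoters of 5 genes held a match, beside 14.7% of 32851 promoters. Both Wwtr1 promoters hold the same site, which is thus counted for each of them, and the share was not tested. A match is a description of these letters and not a site of binding. The 30 bases around each match are shown because Lats2 itself is a described target of Yap and Tead, with the match in capitals and the strand of the gene read 5′ to 3′.
Lats2, chr14:57746102-57746131, minus strand: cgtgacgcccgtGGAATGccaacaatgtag
Yap1, chr9:8004720-8004749, minus strand: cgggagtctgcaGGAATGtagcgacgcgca
Wwtr1, chr3:57576029-57576058, minus strand: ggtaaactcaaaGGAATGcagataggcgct
Sav1, chr12:69987091-69987120, minus strand: cggctttcccagCATTCCcagcggcgcggg
Mob1a, chr6:83325818-83325847, plus strand: tggccagaatagCATTCCtttaggagaaga
The Lats2 match begins 4 bases after the start site of the first of its 2 promoters, and the match of Yap1 begins 141 bases before the start. Those of Sav1 and Mob1a begin 106 and 209 bases before it. The promoters of Lats1 and Stk4 and the second of Lats2 held none of these letters. Of the genes with a match, Lats2 rose, Wwtr1 was called lower with the block only, and Yap1, Sav1 and Mob1a were not called.

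The other genes of the pathway changed in both directions. Of 82 listed genes that are no members, 76 were measured, 7 rose, 4 fell and 65 were not called. That is 14.5% called, beside 7.78% of all genes, and 9.21% called higher beside 3.79%. The median change was 0.02, against 0.01 for all genes. A fit without the dimmest 40% of genes called 12 of 68 pathway genes, beside 1724 of 11963 genes in all. With the replicate block 15 rose and 8 fell (30.3%, beside 17.4% of all genes), and without tamoxifen replicate 1, the array nearest to untreated cells, 8 rose and 6 fell. The count fell to 4 without tamoxifen replicate 2 or tamoxifen replicate 3, and to 5 without untreated replicate 2, and those fits also called fewer genes in all (355, 539 and 516 against 1552).

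The list of upstream activators took in cadherins, polarity proteins, scaffolds and kinases from families described as feeding into Mst and Lats. Whether each gene, Fat2 included, acts on these kinases was not tested. The list held 6 of the 11 calls: of 23 measured, 3 rose and 3 fell (26.1%, beside 7.78% of all genes). Fat2, an atypical cadherin, read 7.68, 7.67 and 7.53 in untreated cells and 8.57, 8.68 and 8.54 after tamoxifen, a change of 0.97 ± 0.07 or 1.96-fold (limma adjusted p = 0.000575). All treated values lay far above all untreated values, and the gene was called whichever array was left out. Its relatives Fat1, Fat3 and Fat4 had changes of 0.25 ± 0.14, 0.20 ± 0.07 and 0.12 ± 0.07, none of them called in the unblocked limma fit; with the block only Fat1 passed (adjusted p = 0.0251). Crb3, a Crumbs protein of the apical membrane, read 9.49, 9.27 and 9.34 in untreated cells and 8.82, 8.63 and 8.68 after tamoxifen, a change of -0.65 ± 0.08 (limma adjusted p = 0.00456), and was also called in all 6 fits without 1 array.

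The other 4 calls among the activators were smaller and were lost in most fits without 1 array. Wwc1, the Kibra scaffold that binds Lats kinases, fell by 0.38 ± 0.08 on the log2 scale (limma adjusted p = 0.0261) and Taok3, of a kinase family that can activate Mst, fell by 0.36 ± 0.08 (0.0299). Dchs1, the cadherin that binds Fat4, rose by 0.28 ± 0.07 (limma adjusted p = 0.049) and Rassf5, which binds Mst kinases, by 0.28 ± 0.07 (0.0408). Wwc1, Taok3 and Dchs1 were called in 1 and Rassf5 in 2 of the 6 fits without 1 array, and Dchs1 was not called after cyclic loess (0.0793). Nf2, the membrane-linked tumour suppressor Merlin, was not called, at 0.22 ± 0.08 (limma adjusted p = 0.122).

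**Figure D3:**
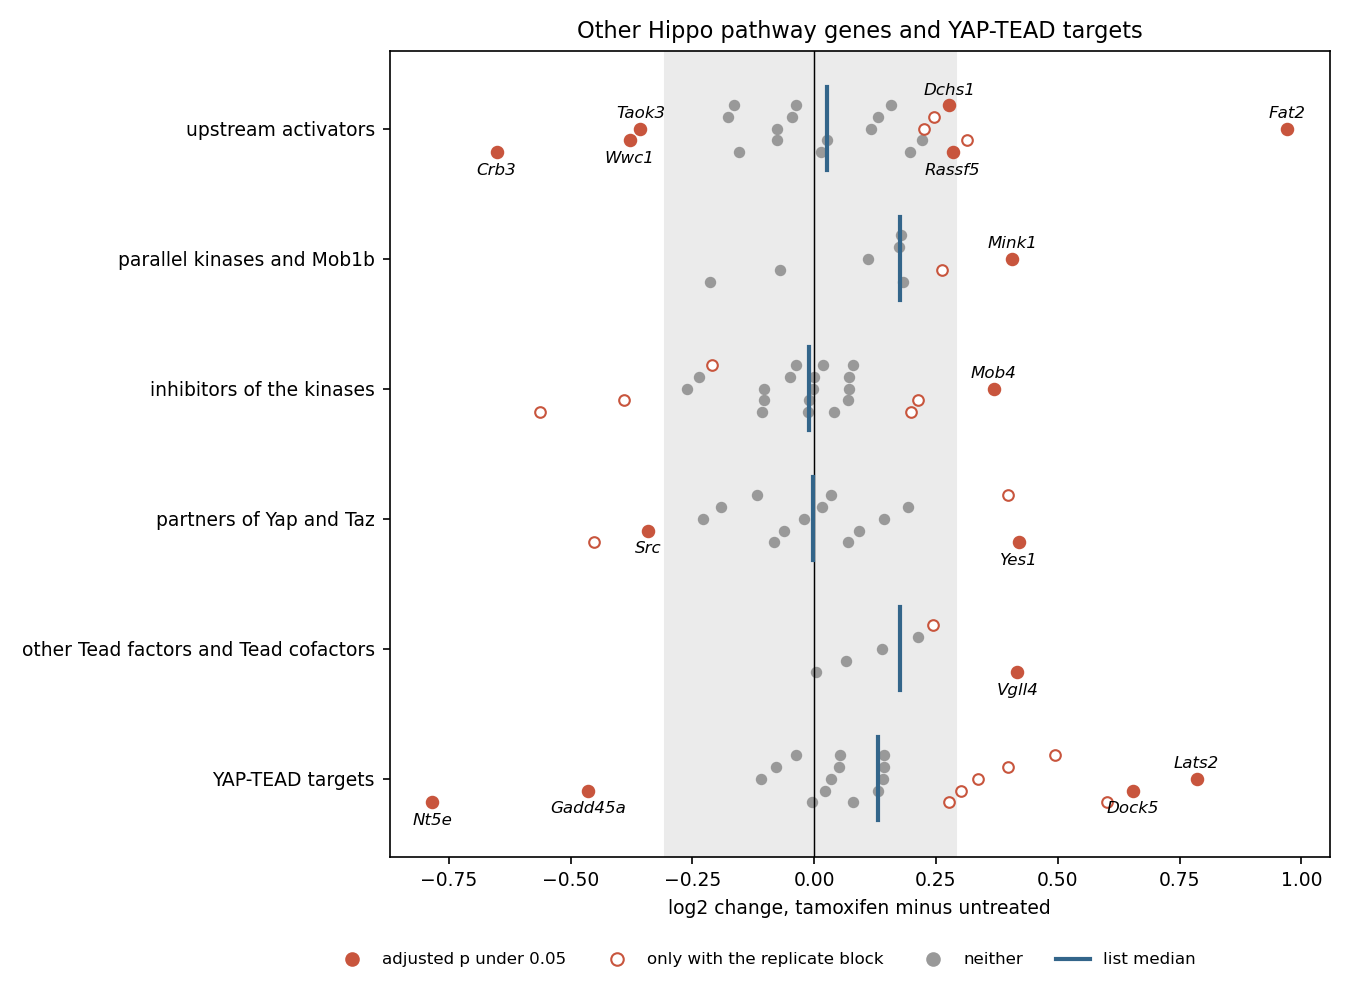
Log2 change, tamoxifen minus untreated (horizontal axis), of each measured gene in 6 fixed lists; filled red points passed an adjusted p of 0.05, open red points passed only with the replicate block, and the blue line is the median of the list. The grey band holds the changes of all genes from the 5th to the 95th percentile (-0.31 to 0.29); Fat2, Lats2 and Dock5 lie farthest to the right and Nt5e and Crb3 farthest to the left.

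Of the 8 measured parallel kinases and Mob1b, only Mink1 was called (12.5%, beside 7.78% of all genes). Mink1, 1 of the kinases that can phosphorylate Lats beside Mst, rose by 0.41 ± 0.06 on the log2 scale (limma adjusted p = 0.00794) and was called in 6 of 6 fits without 1 array. Stk38l, a kinase related to Lats, had a value of 0.26 ± 0.07, just outside the threshold (limma adjusted p = 0.051, or 0.035 with the block). Among 23 inhibitors of the kinases, 1 rose and 0 fell (4.35%, below the 7.78% of all genes). Mob4, a subunit of the phosphatase complex that opposes Mst, went from 11.01 ± 0.03 to 11.38 ± 0.02 (SD, n = 3), a rise of 0.37 ± 0.06 (limma adjusted p = 0.00994), also called in 6 of 6. The other 9 measured subunits of that complex were not called without the block. The block called 2 of them, Sike1, at -0.39 ± 0.12 (limma adjusted p = 0.0816, or 0.009 with the block), and Strn, at 0.20 ± 0.07 (0.139, or 0.0484 with the block). Strn3, Strn4, Strip2, Slmap, Ppp2r1a, Ppp2ca and Pdcd10 had changes from -0.10 to 0.07.

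Of 16 partners of Yap and Taz, 1 rose and 1 fell (12.5% called, beside 7.78% of all genes). They were the related tyrosine kinases Yes1 and Src. Yes1 read 10.81, 10.82 and 11.08 in untreated cells and 11.22, 11.35 and 11.40 after tamoxifen, a rise of 0.42 ± 0.09 (limma adjusted p = 0.0262). Src read 10.08, 9.97 and 9.98 and then 9.72, 9.63 and 9.66, a fall of 0.34 ± 0.06 on the log2 scale (limma adjusted p = 0.0165). Neither pair of groups overlapped, as for 56.2% of this list and 29.3% of all genes. Yes1 was called in 2 and Src in 3 of the 6 fits without 1 array. The 3 angiomotin genes, Amot, Amotl1 and Amotl2, which tether Yap outside the nucleus, were not called and had changes of -0.02 ± 0.07, 0.19 ± 0.06 and 0.14 ± 0.09. All 6 genes of the other Tead factors and Tead cofactors were measured, and 1 was called (16.7%, beside 7.78% of all genes). It was Vgll4, which rose by 0.42 ± 0.08 (limma adjusted p = 0.0157) and was kept in 4 of the 6 fits that left out an array. Vgll4 competes with Yap for Tead proteins. Tead2, the Tead factor known for the early embryo, was not called at 0.21 ± 0.07 (limma adjusted p = 0.117), nor was Tead3 at 0.07 ± 0.06.

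Transcripts described as read out by Yap, Taz and Tead in other cells were then counted. Of 24 listed, 23 were measured, 2 rose, 2 fell and 19 were not called, or 17.4% beside 7.78% of all genes. Lats2, itself on this list, was 1 of the 2 that rose. Of the 22 without it, 1 rose and 2 fell, or 13.6%, with 4.55% called higher beside 3.79% of all genes. Their median change was 0.11. Amotl2, Ptpn14, Ajuba and Fjx1 were also counted among the pathway genes above. The median change of all 23 was 0.13, against 0.01 for all genes, and 17 of the 23 changes were above 0 (73.9%, beside 53.2% of all genes). With the replicate block 8 rose and 2 fell, 43.5% of the list beside 17.4% of all genes. The fit without the dimmest 40% of genes called 3 of 16 targets, beside 1724 of 11963 genes in all. Without tamoxifen replicate 1 there were 5 rises and 1 fall, and without untreated replicate 2, untreated replicate 3 or tamoxifen replicate 3 a single gene was called, and without tamoxifen replicate 2 there were 2.

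Dock5, an exchange factor for Rac, read 11.43, 11.48 and 11.44 in untreated cells and 12.07, 12.21 and 12.04 after tamoxifen. The groups were far apart, with a rise of 0.65 ± 0.07 or 1.57-fold (limma adjusted p = 0.00225), and the call was kept whichever array was left out. Nt5e, the surface nucleotidase CD73, read 7.02, 7.56 and 7.50 in untreated cells and 6.37, 6.81 and 6.54 after tamoxifen, a fall of 0.78 ± 0.15 on the log2 scale (limma adjusted p = 0.0208; kept in 3 of the 6 fits that left out an array). Gadd45a, a gene of the growth arrest response, fell by 0.46 ± 0.11 (limma adjusted p = 0.0408; kept in 1 of the 6, and 0.052 after cyclic loess).

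The connective tissue growth factor gene Ccn2, often used to read Yap activity, read 9.63, 10.07 and 9.76 in untreated cells and 10.09, 10.90 and 10.26 after tamoxifen. The treated values lay above all untreated ones by a narrow margin, and the change of 0.60 ± 0.20 was not called by limma (adjusted p = 0.101) but passed with the block (0.00252). Ccn1, its relative, read 8.64, 8.85 and 8.73 in untreated cells and 8.83, 9.73 and 9.15 after tamoxifen. Its groups overlapped at tamoxifen replicate 1, and the change of 0.49 ± 0.19 had an adjusted p of 0.154 in limma and 0.0226 with the block. Ptpn14, a phosphatase that binds Yap, had a value of 0.40 ± 0.11 (limma adjusted p = 0.0693, or 0.0331 with the block) and was higher by 0.05, 0.58 and 0.57 in the replicate pairs. Ankrd1, another such transcript, had a value of -0.0039 ± 0.06 (limma adjusted p = 0.979).

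**Figure D4:**
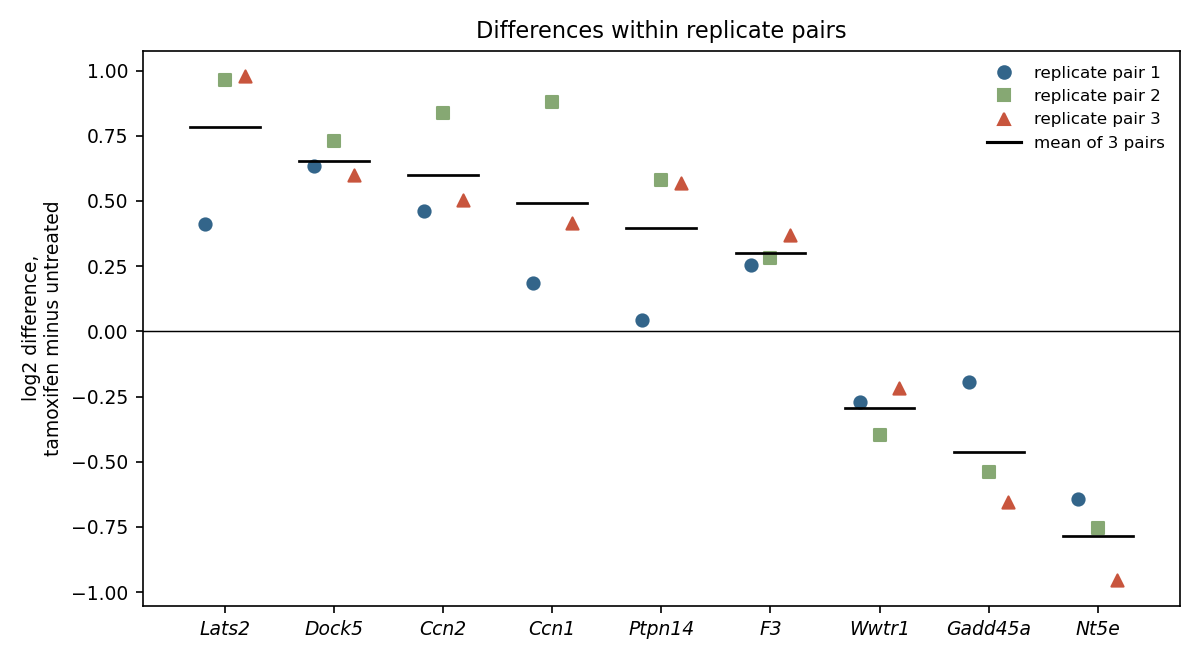
Log2 difference between the tamoxifen and the untreated array of the same replicate number (vertical axis) for Lats2, Wwtr1 and 7 described Yap targets, with the mean of 3 pairs as a black line. These 9 genes, some chosen after their values were seen, each have their 3 differences on the same side of 0, as did 15 of the 23 measured targets (65.2%, beside 51.7% of all genes); pair 1 is the smallest in size for Lats2, Ccn1, Ccn2, Ptpn14, Gadd45a, F3 and Nt5e, and lies between the others for Dock5 and Wwtr1.

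The genes whose 6 values ran closest to those of Lats2 were found by the root mean square difference between profiles, each taken as a difference from its own untreated mean. With microRNA genes and placeholder symbols (Gm, LOC or Rik names) left out, 18407 genes were compared over the 6 arrays. The closest of them were Meis2, at 0.109 log2 units, Id2, at 0.112, and Btbd11, at 0.122. The homeobox gene Meis2 read 6.09, 6.37 and 6.27 in untreated cells and 6.72, 7.21 and 7.36 after tamoxifen. Id2, an inhibitor of basic helix-loop-helix factors, read 10.66, 10.65 and 10.69 and then 11.24, 11.63 and 11.47. These genes were chosen for their likeness to Lats2, so their resemblance to it and their rise are given with no test.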

How the data were processed

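The authors deposited log2 intensities made with RMA, and the submitters' processing notes name Affymetrix Expression Console 1.2. RMA corrects background, quantile-normalises arrays and summarises each probe set, so it hides any shift common to most genes. That the deposited values are log2 follows from their range, 3.18 to 14.6. The build of the array annotation is not given in the sources used here. Among 35556 probe sets, 21789 listed a single symbol, and the brightest of each gene was kept (19938 genes). Pals1 was read as Mpp5 and Map4k6 as Mink1 through RefSeq synonyms.

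Groups were tested with limma 3.58.1 (R 4.3.3; two-sided, Benjamini-Hochberg over all genes, no filter). Errors are limma's standard errors (SE) or standard deviations (SD) of 3 arrays. Paralogs were compared by exact permutation over arrays. Same-numbered arrays deviated from their group means together (correlations 0.356, 0.345 and 0.389), so the numbers were taken to pair them. Data were simulated for 19938 genes, 200 of them changed, with independent normal noise and no shared deviation of same-numbered arrays. There limma recovered 62% of changes of 0.5 (log2) and 96% of changes of 1, with 5 false calls. The rates for the measured arrays may differ. The members and lists were chosen with earlier results of these data known. The naming rule takes the members, Dicer1, all called genes of each list and the 3 profiles nearest to Lats2; the uncalled relatives of called genes and members, Nf2, Stk38l, the phosphatase subunits, the angiomotins, Tead2, Tead3, Ccn1, Ccn2, Ptpn14, F3 and Ankrd1 were picked after their values were seen. Alternatives tried were the replicate block, averaged probe sets, no dim genes (lowest 40%), median centring, quantile and cyclic loess normalisation, another variance prior, array weights, all probe sets, a threshold of 0.01, and each array left out.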

Additional observations from a re-analysis of the deposited data

How the results depend on the processing

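Of the named genes, no call changed direction under any alternative. The members called numbered 2 with the replicate block, 0 over all probe sets and 0 at a threshold of 0.01, and 0 to 1 when 1 array was left out. The pathway genes called numbered 11, and 23 with the block, 20 with array weights, 4 over all probe sets, 4 at 0.01 and 4 to 14 without 1 array. The Yap and Tead targets called numbered 4, and 10 with the block, 1 over all probe sets, 1 at 0.01 and 1 to 6 without 1 array. Over all genes 1552 were called, and 3472 with the block, 2511 with array weights, 276 at 0.01 and 355 to 1580 without 1 array. The fit over all probe sets called 336 of 35556 probe sets, or 273 of the 19938 genes. Other alternatives kept these counts within 1.5 times. The Tead1 change of 0.02 was -0.0057 as the mean of its probe sets and ran from -0.03005 to 0.0951 without 1 array, below 0 without untreated replicates 1 or 2 or tamoxifen replicate 3. That of Tead4 ran from -0.0437 to 0.106, below 0 without tamoxifen replicate 1. Without 1 array the difference of changes between Tead4 and Tead1 ran from -0.0723 to 0.13, and was below 0 without untreated replicate 3 or tamoxifen replicate 1; that of Lats2 and Lats1 ran from 0.59 to 0.85 and that of Wwtr1 and Yap1 from -0.34 to -0.15. The cause of these shifts was not tested. The replicate block changed no call of a named gene chosen by the rule other than that of Wwtr1. Among normalisations, repeated quantile normalisation and cyclic loess lost Dchs1 and Gadd45a, and median centring lost Dchs1. Another variance prior lost Dchs1 and Rassf5, and the fit to listed probe sets lost Dchs1. Over all probe sets 11 named genes lost their call.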
